A study of Mus musculus with 6 samples.

Results

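The genes described here encode the conjugating enzymes of the liver, the UDP-glucuronosyltransferases (Ugt), the glutathione transferases (Gst and Mgst) and the cytosolic sulfotransferases (Sult). They were chosen by symbol, as every gene named Ugt1a, Ugt2a, Ugt2b, Ugt3a, Gsta, Gstm, Gstt, Gstp, Gsto, Gstk, Gstz, Mgst or Sult followed by a digit. Among the 22609 genes counted, 62 matched, and the 44 with at least 10 counts in at least 3 libraries are reported: 17 of 20 Ugt, 21 of 24 Gst and 6 of 18 Sult genes. Among the 18 left out, 12 had no count in any library and 6 had a few. RNA was sequenced from primary hepatocytes of wild-type male C57BL/6 mice aged 4 months. A control group of 3 libraries received phosphate-buffered saline (PBS), and the other group of 3 received 20 µg/mL of LRG1, a secreted leucine-rich glycoprotein, both for 16 h. Neither group carried a genetic change, and whether the libraries of a group came from separate animals or cultures is not stated, so the p-values measure the spread between these libraries, which may be technical.

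Conjugation is the step of hepatic metabolism that attaches a polar group to a drug, hormone, pigment or reactive metabolite so that it can leave the cell in bile or blood. UDP-glucuronosyltransferases of the endoplasmic reticulum use UDP-glucuronic acid, glutathione transferases use the tripeptide glutathione, and sulfotransferases use the sulfate donor PAPS. The families are products of repeated gene duplication and lie in clusters of close paralogs. Many members are under the control of nuclear receptors such as PXR and CAR, of the aryl hydrocarbon receptor and of the oxidative stress factor NRF2, and their mRNAs are known to decline when hepatocytes are kept in culture.

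Libraries held between 18625748 and 23036332 counts in genes. Values are CPM, counts scaled to a common library size by the TMM method, and tests are edgeR quasi-likelihood tests of LRG1 against PBS with Benjamini-Hochberg adjustment over all 12301 genes tested, with a threshold of 0.05. The log2 fold change from that fit, LRG1 over PBS, is written log2FC. The 9 hepatocyte markers summed to 48497 to 49562 CPM with PBS and to 48319 to 49129 CPM with LRG1, and most of that was Alb and Trf. Marker calls are to be read beside the 51.4% of all genes tested that were called, 25.8% lower and 25.5% higher. Of the 9, 4 fell (Cps1, from 36.3 to 8.44 CPM, and Fgb, Apoa1 and Hnf4a, with log2FC of -0.78, -0.62 and -0.30), 1 rose (Trf, 0.13) and 4, Alb among them, did not pass. For 10 stellate cell and fibroblast markers, of which 2 of 8 tested rose (Col1a1 and Acta2) and 1 fell (Reln), the sums were 59.7 to 68.2 CPM with PBS and 157 to 168 CPM with LRG1. That difference came mostly from Col1a1, at 11.2 CPM and 110.2 CPM. Among the other markers tested, Pdgfrb was also higher without passing. Col1a2, Col3a1, Dcn and Des were slightly lower and did not pass either. Lrat, a marker of stellate cells, was at 0.346 and 0.0144 CPM, too scarce to test. Endothelial markers, of which 2 of 6 tested fell (Lyve1 and Stab2), summed to 40.1 to 42.4 CPM and 33.8 to 37.9 CPM, and leukocyte markers to 218 to 264 CPM and 180.0 to 206 CPM. Nearly all of the leukocyte sum was Cd68, which fell, and Cd3e was at 0 in every library. Of the biliary markers, Krt19 fell from 18.4 to 3.24 CPM, Sox9 rose from 52.6 to 84.3 CPM, and Spp1 made up nearly all of the sum at 4437 and 4442 CPM. The part of these cells in the results was not tested. In bulk RNA, fewer cells of a type and less RNA per cell cannot be told apart.

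Conjugating enzyme genes were mostly lower in hepatocytes given LRG1. Of the 44 genes, 34 fell, 3 rose (Sult1e1, Sult1d1 and Gsto1) and 7 did not pass the test. Over all genes tested, 25.8% were called lower, 25.5% higher and 51.4% either way. A decrease of at least 2-fold was found for 24 of the 44 genes, against 5.43% of all genes tested. The 3 that rose were each at least 2-fold higher, against 4.07% of all genes tested. All 44 were tested, their median log2 fold change was -1.04, and that of all genes tested was 0.0093. Ugt1a2 and Ugt2b38 met the count rule through the PBS libraries alone, so a lower value was built into their inclusion. The 3 LRG1 libraries lay entirely below the 3 PBS libraries for 35 of the 44 genes, against 28.6% of all genes tested, and entirely above them for 3, against 29.0%. Groups without overlap in either direction made up 57.6% of all genes tested. The plot of single libraries shows the separation for each gene.

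**Figure D1:**
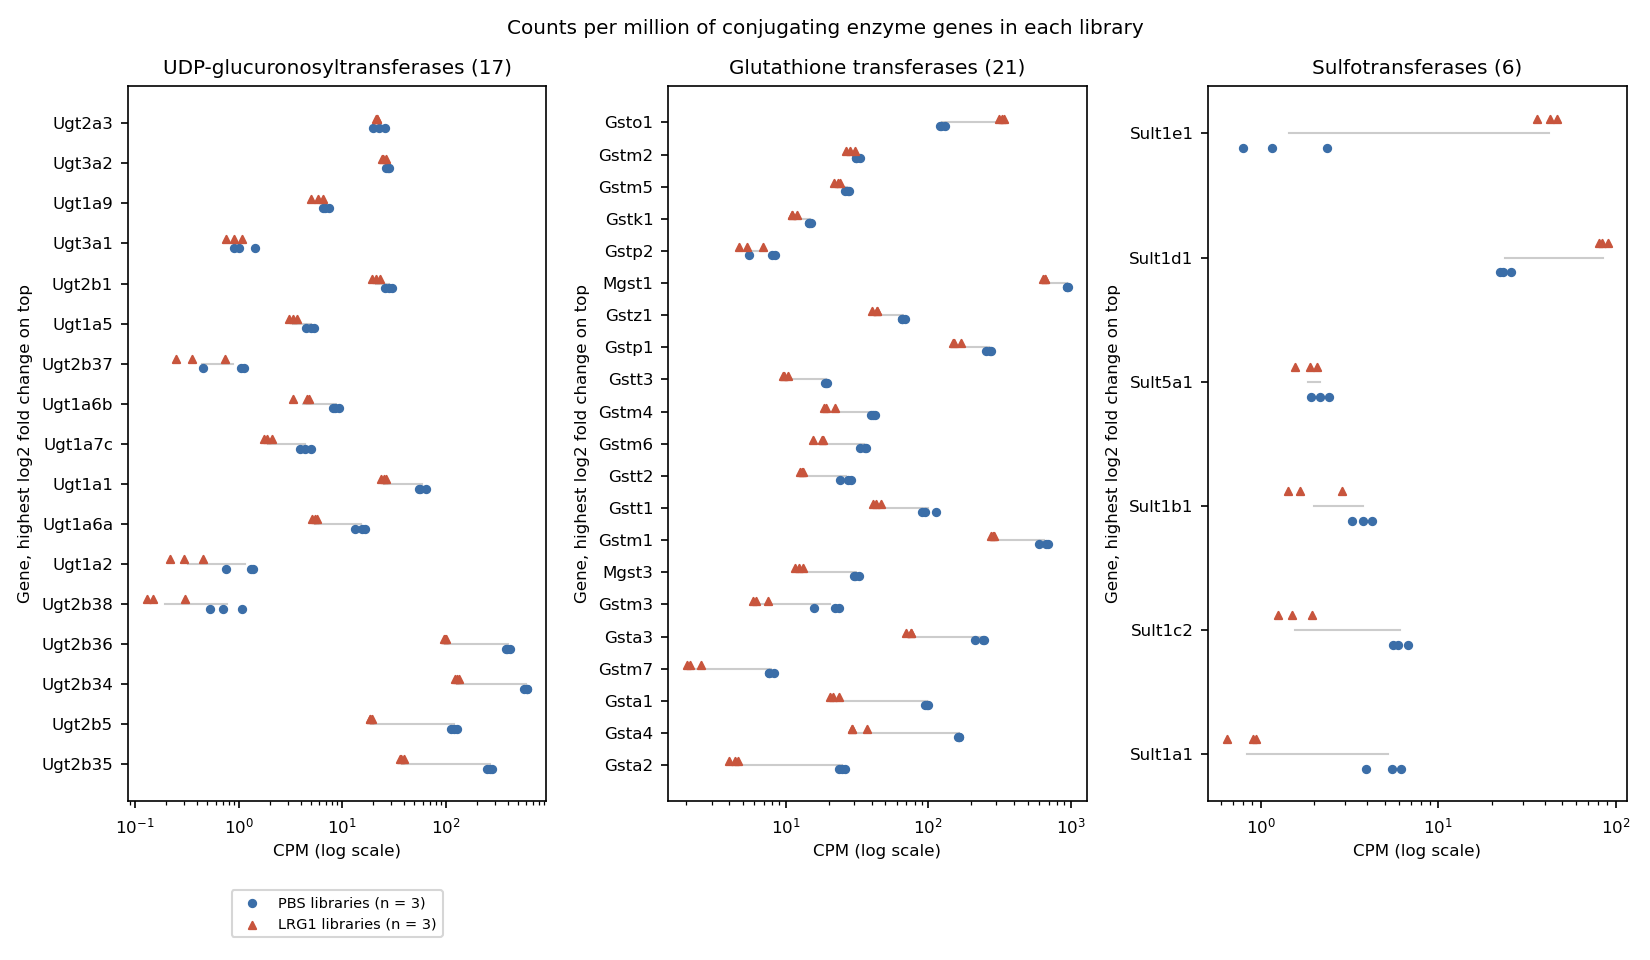
CPM of each of the 44 genes in each library, on a log scale, by family (blue circles are PBS libraries, red triangles LRG1 libraries, n = 3 each, and grey lines join the group means), with the highest log2 fold change on top in each panel. Sult1e1, Sult1d1 and Gsto1 are the genes whose LRG1 libraries all lie above the PBS libraries.

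The families differed in their sums. Summed over its 17 genes, the Ugt family had 1534, 1543 and 1624 CPM in PBS replicates 1 to 3 and 409.9, 396 and 397 CPM in LRG1 replicates 1 to 3. The Gst family, with 21 genes, had 2968, 2840.3 and 3001 CPM with PBS and 1804, 1747 and 1813 CPM with LRG1. By contrast the 6 Sult genes summed to 40.0, 44.6 and 42.8 CPM with PBS and to 134, 122 and 143 CPM with LRG1. In none of the families did the sums of the groups overlap. The LRG1 to PBS ratio of the sums was 0.256 for Ugt, 0.609 for Gst and 3.14 for Sult. Together the 44 genes went from 4546 ± 120.1 to 2322 ± 49.6 CPM (SD, n = 3 per group). These sums add reads over genes of different length and carry no test, because the genes were chosen with earlier results in view.

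**Figure D2:**
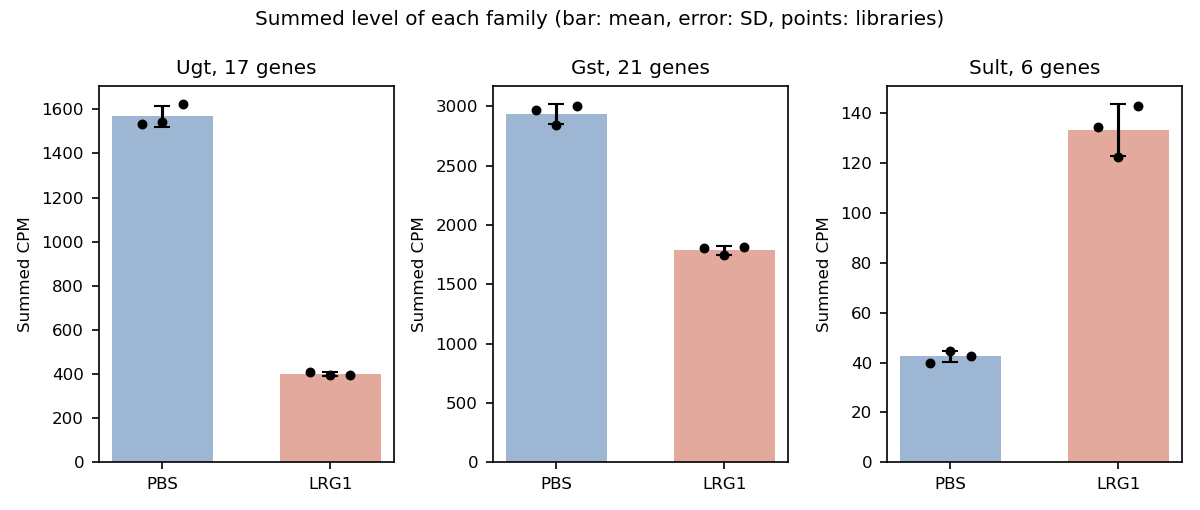
Summed CPM of the reported Ugt, Gst and Sult genes, as group mean (bar), SD (error line) and single libraries (points, n = 3 per group). The Ugt and Gst sums are lower with LRG1, at 401 against 1567 CPM and at 1788 against 2937 CPM, and the Sult sum is higher, at 133 against 42.5 CPM.

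The sulfotransferases held the strongest increase and some of the strongest decreases. Sult1e1, the estrogen sulfotransferase, which inactivates estrogens by sulfation, had 1.16, 2.37 and 0.796 CPM in PBS replicates 1 to 3 and 42.6, 36.1 and 47.0 CPM in LRG1 replicates 1 to 3. Every LRG1 library was more than 10-fold above the highest PBS library, and the fitted difference was 29.0-fold (log2FC 4.86, SE 0.167, adjusted p = 4.19e-17). Only 24 of the 12301 genes tested had a higher log2 fold change. Sult1d1, a sulfotransferase of catecholamines and other amines, had 23.2, 25.7 and 22.4 CPM in the PBS libraries against 84.0, 81.1 and 90.3 CPM in the LRG1 libraries, again with no overlap (log2FC 1.84, SE 0.0610, adjusted p = 2.00e-17). Sult1d1 held 56.0 ± 3.13% of the summed Sult CPM with PBS and 64.0 ± 2.02% with LRG1, while the share of Sult1e1 went from 3.36 ± 1.77% to 31.4 ± 1.73% (SD, n = 3).

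At low levels, 3 relatives fell and 1 did not pass. Sult1a1, which sulfates phenols, had 3.95, 5.50 and 6.16 CPM in the PBS libraries against 0.946, 0.648 and 0.907 CPM in the LRG1 libraries (log2FC -2.64, SE 0.227, adjusted p = 7.70e-10). In the reference annotation, 4.21% of its exon bases overlap Sgf29 on the other strand. Sult1c2 had 5.97, 5.55 and 6.74 CPM in the PBS libraries against 1.94, 1.252 and 1.51 CPM in the LRG1 libraries and was 3.90-fold lower (adjusted p = 2.11e-09). The groups did not overlap for either gene. Sult1b1, which sulfates thyroid hormones, had 3.80, 3.29 and 4.25 CPM in the PBS libraries against 2.89, 1.43 and 1.66 CPM in the LRG1 libraries (log2FC -0.94, SE 0.216, adjusted p = 8.58e-04). LRG1 replicate 1 was closest to the PBS libraries and the groups still did not overlap. Sult5a1 had 1.92, 2.16 and 2.44 CPM in the PBS libraries against 2.09, 1.90 and 1.56 CPM in the LRG1 libraries, overlapping values that did not pass (adjusted p = 0.379, 95% interval of log2FC -0.65 to 0.20). The 7 Sult2a genes, which encode hydroxysteroid and bile acid sulfotransferases known for higher levels in female mouse liver, had no count in any library. A count of 0 allows at most 3 counts, or 0.130 to 0.162 CPM depending on the library, and covers counting error only.

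Sult1b1, Sult1d1 and Sult1e1 are neighbours on chromosome 5, next to the Ugt2 cluster. In the order of the RefSeq annotation (GRCm38.p6), which was used for order alone since the authors' counts refer to mm9, the protein-coding genes run from Ugt2b34 through Ugt2b1, Ugt2b35, Ugt2b36, Ugt2b5, Ugt2b37, Ugt2a3, Ugt2b38, Ugt2a1 and Ugt2a2 to Sult1b1, Sult1d1 and Sult1e1. Log2 fold changes of genes in the Ugt2 stretch ran from -2.82 for Ugt2b35 to -0.08 for Ugt2a3, and Ugt2a1 and Ugt2a2 had no counts. Only 2.975% and 5.46% of the 50-base windows of the Ugt2a1 and Ugt2a2 transcripts are found in no other gene. Having no counts therefore need not mean that their RNA was absent. Sult1b1 followed at -0.94, then Sult1d1 at 1.84 and Sult1e1 at 4.86. Direction thus changed between the adjacent genes Sult1b1 and Sult1d1. The flanking gene Ythdc1, on the Ugt2b34 side, was at 0.27 and Csn1s1, on the other side, had no counts.

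**Figure D3:**
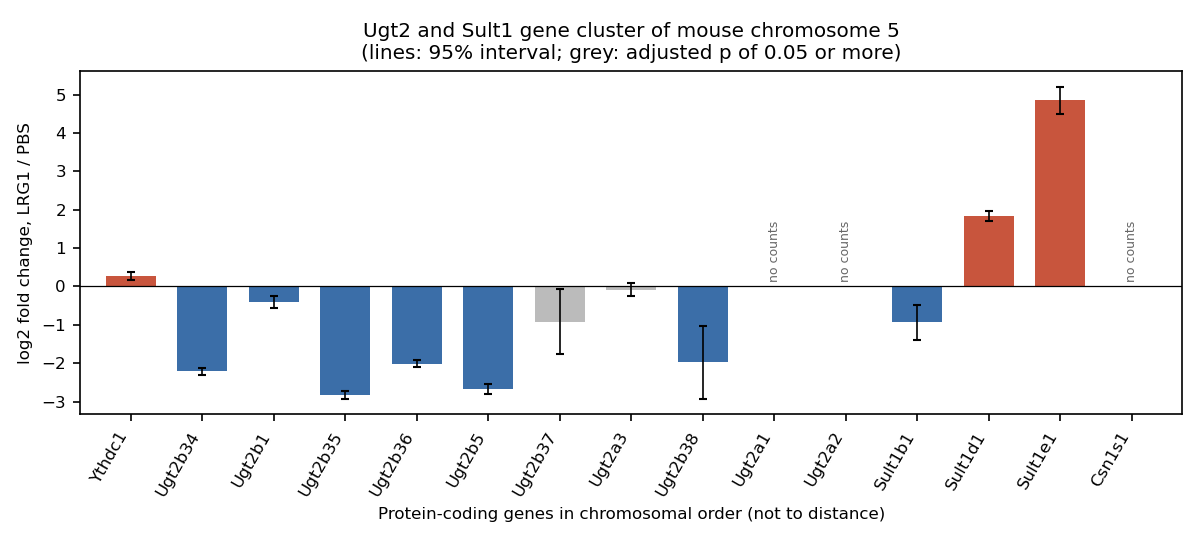
Log2 fold change (LRG1 over PBS) of the protein-coding genes of the Ugt2 and Sult1 cluster on mouse chromosome 5, with 95% intervals, in chromosomal order and not to distance (blue bars fell, red bars rose and grey bars did not pass the test). The Ugt2b genes lie below 0, down to -2.82, and Sult1d1 and Sult1e1 at the other end lie at 1.84 and 4.86.

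The promoters of the 3 genes that rose are shown with those of 3 that fell. The 3 that fell were picked by hand. Whether promoter sequence bears on the direction of change was not tested. Each is the 250 bases before the RefSeq transcription start (GRCm38.p6), 5′ to 3′ on the gene's strand. Capitals mark matches on either strand to any of 5 words searched: the antioxidant response element bound by NRF2, TGACNNNGC; a core of the HNF1 site, GTTAAT followed by any base and ATT; the aryl hydrocarbon receptor core, GCGTG; an HNF4 word, CAAAGTCCA; and a SMAD palindrome, GTCTAGAC. The first 3 sequences belong to genes that rose and the others to genes that fell.
Sult1e1, chr5:87591612-87591861, minus strand: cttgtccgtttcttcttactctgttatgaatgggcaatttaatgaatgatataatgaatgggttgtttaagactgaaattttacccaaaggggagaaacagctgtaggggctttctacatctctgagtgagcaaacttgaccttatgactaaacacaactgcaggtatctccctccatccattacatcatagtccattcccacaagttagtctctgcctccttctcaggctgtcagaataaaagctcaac
Sult1d1, chr5:87569007-87569256, minus strand: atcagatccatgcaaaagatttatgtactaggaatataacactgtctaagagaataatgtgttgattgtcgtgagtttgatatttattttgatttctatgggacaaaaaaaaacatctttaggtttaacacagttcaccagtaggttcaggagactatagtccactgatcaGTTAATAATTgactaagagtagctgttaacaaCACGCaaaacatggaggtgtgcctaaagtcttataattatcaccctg
Gsto1, chr19:47854723-47854972, plus strand: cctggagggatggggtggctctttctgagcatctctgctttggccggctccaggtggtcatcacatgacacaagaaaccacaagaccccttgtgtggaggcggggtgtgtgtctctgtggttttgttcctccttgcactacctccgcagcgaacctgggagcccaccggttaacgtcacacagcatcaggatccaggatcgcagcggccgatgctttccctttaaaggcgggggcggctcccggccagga
Ugt2b35, chr5:87000610-87000859, plus strand: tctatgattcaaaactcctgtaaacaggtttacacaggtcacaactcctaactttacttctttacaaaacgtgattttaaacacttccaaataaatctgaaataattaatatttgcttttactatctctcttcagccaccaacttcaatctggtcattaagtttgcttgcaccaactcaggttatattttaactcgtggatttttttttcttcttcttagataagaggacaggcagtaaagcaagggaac
Ugt1a1, chr1:88211709-88211958, plus strand: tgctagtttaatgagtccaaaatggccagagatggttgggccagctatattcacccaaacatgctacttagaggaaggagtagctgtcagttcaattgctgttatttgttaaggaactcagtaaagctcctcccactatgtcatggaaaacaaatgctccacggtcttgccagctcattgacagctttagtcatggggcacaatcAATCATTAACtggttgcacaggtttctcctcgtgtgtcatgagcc
Gsta3, chr1:21240335-21240584, plus strand: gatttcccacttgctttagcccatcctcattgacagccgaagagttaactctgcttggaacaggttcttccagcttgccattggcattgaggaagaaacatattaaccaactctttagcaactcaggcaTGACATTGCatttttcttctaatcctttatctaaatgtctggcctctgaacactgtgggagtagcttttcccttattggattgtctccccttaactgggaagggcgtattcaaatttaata

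In these windows Sult1d1 held the HNF1 word at 79 to 70 bases before the start and the receptor core at 47 to 43 bases before it. Ugt1a1 held the HNF1 word on the opposite strand, 45 to 36 bases before the start. Gsta3 held the antioxidant word 121 to 113 bases before the start. No searched word lay in the Sult1e1, Gsto1 or Ugt2b35 window, which says only that these letters are not there. Of the 44 genes, 40 had an entry in the promoter table. The HNF1 word was found in 3 of the 40 (7.50%), against 0.411% of 8767 tested genes in the table and 0.371% of all 32851 promoters. Its carriers were Sult1d1, which rose, Ugt1a1, which fell, and Ugt1a9, which did not pass. The antioxidant word was found in 4 of the 40 (10%), against 14.5% of the tested genes and 10.2% of all promoters. Gsta3, Gstm5, Gstm7 and Mgst1 carried it and fell, as did 34 of all 44 genes. The receptor core was in 8 of the 40 (20.0%), against 50.3% of the tested genes and 28.2% of all promoters. It can overlap the antioxidant word, as it does in Gstm5. No promoter of the 40 held the HNF4 word (0.548% of the tested genes, 0.384% of all promoters) or the SMAD palindrome (0.228% and 0.167%).

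Among the UDP-glucuronosyltransferases, 12 of 17 genes fell, none rose and 5 did not pass. The Ugt2b enzymes, which glucuronidate steroids, bile acids and many drugs, had the strongest decreases. Ugt2b35 had 268, 251 and 279 CPM in PBS replicates 1 to 3 and 39.7, 36.8 and 36.1 CPM in LRG1 replicates 1 to 3 (log2FC -2.82, SE 0.0504, adjusted p = 8.30e-22). By p-value it was the 4th of all 12301 genes tested, and its highest LRG1 library was more than 6-fold below its lowest PBS library. Ugt2b34 had 577, 617 and 607 CPM in the PBS libraries against 136, 124 and 128 CPM in the LRG1 libraries (log2FC -2.21, SE 0.0433, adjusted p = 2.04e-21). Ugt2b36 had 394, 381 and 421 CPM in the PBS libraries against 96.9, 100 and 99.3 CPM in the LRG1 libraries (log2FC -2.01, SE 0.0433, adjusted p = 1.00e-20). For Ugt2b5 the values were 120.1, 112 and 129 CPM in the PBS libraries against 18.5, 18.8 and 19.4 CPM in the LRG1 libraries (log2FC -2.67, SE 0.0600, adjusted p = 2.03e-20). Libraries of the same group lay close together for these 4 genes and the groups were far apart. They made up most of the family, and the Ugt2b sum went from 1415 ± 44.5 to 306 ± 7.33 CPM.

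Smaller differences or lower counts were found for the other genes of the Ugt2 cluster. Ugt2b1 had 26.2, 30.2 and 28.6 CPM in the PBS libraries against 23.1, 21.3 and 19.3 CPM in the LRG1 libraries and was 1.33-fold lower (adjusted p = 8.55e-05). Ugt2a3, which glucuronidates bile acids, had 20.1, 25.7 and 23.0 CPM in the PBS libraries against 21.9, 21.7 and 21.4 CPM in the LRG1 libraries. Its groups overlapped, with a 95% interval of log2FC between -0.25 and 0.0891 (adjusted p = 0.438). Ugt2b37, Ugt2b38 and Ugt1a2 sat just inside the count rule, with 3 libraries at 10 counts or more. Ugt2b37 had 9, 21 and 20 counts with PBS and 5, 17 and 7 with LRG1 and did not pass (adjusted p = 0.0632), though it did in 4 of the 13 alternatives that tested it, among them the fits leaving out PBS replicate 1 or LRG1 replicate 2. Its adjusted p over all settings ran from 0.0127 to 0.229, and its log2FC of -0.92 became -1.52 when LRG1 replicate 2 was left out. Ugt2b38 had 14, 20 and 10 counts with PBS and 3, 3 and 6 with LRG1, and fell (log2FC -1.98, SE 0.455, adjusted p = 8.25e-04). Ugt2b38 met the count rule through the PBS libraries alone, so a lower value was built in and its test carries little weight. Just outside the rule was Sult4a1, with 5, 9 and 8 counts with PBS and 3, 7 and 3 with LRG1.

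The Ugt1a genes, which include the bilirubin-conjugating enzyme, share their last exons and differ in the first. Reads from the shared exons belong to several genes at once, so the counts of a single gene are uncertain. How such reads were handled was not found in the sources used here. Ugt1a1, the enzyme that glucuronidates bilirubin, had 57.1, 55.0 and 64.8 CPM in PBS replicates 1 to 3 and 25.5, 26.9 and 23.98 CPM in LRG1 replicates 1 to 3 (log2FC -1.21, SE 0.0668, adjusted p = 2.58e-13). In the reference annotation 36.1% of its exon bases, and 6.50 to 12.5% of those of the other reported Ugt1a genes, overlap Gm20528 on the other strand. Ugt1a6a and Ugt1a6b, which glucuronidate planar phenols, fell as well. Ugt1a6a had 15.5, 13.3 and 16.7 CPM in the PBS libraries against 5.73, 5.14 and 5.49 CPM in the LRG1 libraries (log2FC -1.48, SE 0.113, adjusted p = 9.13e-11). Ugt1a6b had 8.55, 9.43 and 8.23 CPM in the PBS libraries against 4.58, 4.75 and 3.33 CPM in the LRG1 libraries (log2FC -1.04, SE 0.137, adjusted p = 8.53e-07). Ugt1a7c had 4.35, 3.93 and 4.99 CPM in the PBS libraries against 1.89, 1.77 and 2.12 CPM in the LRG1 libraries (log2FC -1.20, SE 0.175, adjusted p = 3.64e-06). None of these 4 genes had overlapping groups, and the Ugt1a sum went from 100.4 ± 6.25 to 46.6 ± 0.817 CPM.

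The remaining Ugt1a genes were scarce. Ugt1a2, with 27, 14 and 25 counts in the PBS libraries and 6, 5 and 9 in the LRG1 libraries, was 3.58-fold lower. Ugt1a2 met the count rule through the PBS libraries alone, so a lower value was built into its inclusion. Its level went from 1.15 ± 0.342 to 0.323 ± 0.121 CPM, and Ugt1a5 was 1.48-fold lower, from 4.95 ± 0.469 to 3.36 ± 0.307 CPM (SD, n = 3). Ugt1a9, another phenol-conjugating enzyme, had 7.49, 6.84 and 6.53 CPM in the PBS libraries against 5.88, 5.05 and 6.60 CPM in the LRG1 libraries, with overlap, and did not pass (adjusted p = 0.102, 95% interval of log2FC -0.53 to 0.0107). The Ugt3a genes, whose products prefer UDP-sugars other than UDP-glucuronic acid, did not pass either. Ugt3a2 had 27.8, 28.6 and 26.9 CPM in the PBS libraries against 25.0, 24.6 and 26.7 CPM in the LRG1 libraries (log2 fold change -0.13, adjusted p = 0.117), with its LRG1 libraries just below the PBS libraries. Ugt3a1 had 1.125 ± 0.290 and 0.911 ± 0.162 CPM.

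Of the 21 glutathione transferase genes, 19 fell, 1 rose and 1 did not pass. Gsto1, of the omega class, reduces dehydroascorbate and methylated arsenicals and stands apart from the other cytosolic classes in its chemistry. Gsto1 had 122, 130.4 and 122 CPM in PBS replicates 1 to 3 and 327, 312 and 339 CPM in LRG1 replicates 1 to 3, with every LRG1 library above 300 CPM and every PBS library below 131 CPM (log2FC 1.39, SE 0.0429, adjusted p = 5.95e-18). The other omega gene, Gsto2, had at most 5 counts in a library.

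The alpha class, which detoxifies lipid peroxidation products, had the lowest median log2FC of the Gst classes, at -2.26, and all 4 genes fell. Gsta4, whose enzyme prefers hydroxynonenal, had 164, 162 and 164 CPM in the PBS libraries against 37.2, 29.2 and 28.9 CPM in the LRG1 libraries (log2FC -2.37, SE 0.0638, adjusted p = 4.99e-19). LRG1 replicate 1 was the highest of its group and still more than 4-fold below every PBS library. Gsta1 had 99.7, 94.8 and 98.6 CPM in the PBS libraries against 20.3, 23.5 and 21.6 CPM in the LRG1 libraries (log2FC -2.16, SE 0.0573, adjusted p = 3.67e-19). Gsta2 had 23.6, 24.9 and 26.1 CPM in the PBS libraries against 4.63, 4.40 and 3.98 CPM in the LRG1 libraries (log2FC -2.52, SE 0.0986, adjusted p = 4.79e-16). For Gsta3 the values were 246, 213 and 242 CPM in the PBS libraries against 76.0, 69.8 and 75.1 CPM in the LRG1 libraries (log2FC -1.67, SE 0.0519, adjusted p = 6.39e-18). No alpha gene had overlapping groups, and the class sum went from 519.9 ± 21.7 to 132 ± 5.89 CPM.

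In the mu class, a broad-substrate class in liver, all 7 genes fell, by very different amounts. Gstm1 had 673, 596 and 692 CPM in the PBS libraries against 284, 290.1 and 275 CPM in the LRG1 libraries (log2FC -1.21, SE 0.0469, adjusted p = 3.98e-16) and supplied 80.0% of the class sum with PBS and 74.4% with LRG1. Gstm7, Gstm3, Gstm6 and Gstm4 had log2 fold changes of -1.81, -1.65, -1.03 and -1.03. Gstm5 and Gstm2 changed least, at -0.23 and -0.17. Gstm5 lost its call without LRG1 replicate 2 (adjusted p = 0.0560), and 17.9% of its exon bases overlap a transcript on the other strand. Gstm2 (adjusted p = 0.0450) lost its call in 7 of 14 alternatives, among them the fits leaving out PBS replicate 1 or 3, or LRG1 replicate 2 or 3, and its adjusted p ran from 0.0149 to 0.185 over all settings.

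The theta class, active on small halogenated compounds, had 3 genes that all fell. Gstt1 had 94.6, 90.2 and 113 CPM in the PBS libraries against 46.9, 42.6 and 41.2 CPM in the LRG1 libraries (log2FC -1.19, SE 0.0678, adjusted p = 4.75e-13), and Gstt2 and Gstt3 were 2.06-fold and 1.94-fold lower. Gstp1, the pi class enzyme, was 1.70-fold lower, from 266 ± 10.7 to 157 ± 12.3 CPM (adjusted p = 2.62e-12). Its near-copy Gstp2 had 7.27 ± 1.54 and 5.63 ± 1.10 CPM and did not pass (adjusted p = 0.0521). It passed in 6 of 14 alternatives, among them the fits leaving out PBS replicate 1 or LRG1 replicate 3, and its adjusted p over all settings ran from 0.00562 to 0.242. Gstz1, which also serves tyrosine breakdown as maleylacetoacetate isomerase, was 1.57-fold lower, with 22.3% of its exon bases overlapped on the other strand. Gstk1, the kappa enzyme of mitochondria and peroxisomes, was 1.29-fold lower, from 14.6 ± 0.252 to 11.4 ± 0.540 CPM.

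The membrane-bound Mgst proteins are unrelated in fold to the cytosolic enzymes. Mgst3, which has peroxidase activity, had 32.3, 30.7 and 30.2 CPM in the PBS libraries against 11.7, 12.3 and 13.2 CPM in the LRG1 libraries (log2FC -1.33, SE 0.0758, adjusted p = 4.86e-13). Mgst1, of the endoplasmic reticulum and outer mitochondrial membrane, had the most counts of the 44 genes. Mgst1 went from 944 ± 6.80 to 655 ± 14.3 CPM (log2 fold change -0.53, adjusted p = 1.44e-11), and its groups did not overlap. Its share of the Gst sum was 32.1% with PBS and 36.6% with LRG1.

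Close paralogs may lose reads that align to several places, so the sequence private to each gene was measured. The longest protein-coding transcript of each gene in GENCODE M21 (GRCm38) was read in windows of 50 bases, the read length, and a window counted as private when no transcript of another gene held it on either strand. Only exact matches to annotated transcripts were sought, so reads could still be lost to near-identical or unannotated copies. At least 90% of windows were private for 25 of the 44 genes, of which 18 fell, 3 rose and 4 did not pass. Under 50% were private for 11 genes, of which 9 fell and 2 did not pass. The median log2 fold change was -0.94 for the 25 genes and -1.20 for the 19 below 90%. Sult1e1, Sult1d1, Gsto1, Gsta3, Gsta4 and Mgst1 had 100% of windows private, and Ugt2b34, Ugt2b35 and Ugt2b36 had 98.5%, 99.3% and 99.7%. The least private were Ugt1a6a, with 0%, Gsta1, with 10.3%, Ugt1a6b, with 19.3%, and Ugt1a1, with 19.8%. Gsta1 shared 82.9% of its windows with the predicted gene Gm3776, Gstp1 62.3% with Gstp2, and Ugt2b5 34.8% with Ugt2b38. Ugt1a6a had counts in every library although no window was private in this annotation, and the source of those counts was not tested. Values of the genes with little private sequence remain uncertain.

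**Figure D4:**
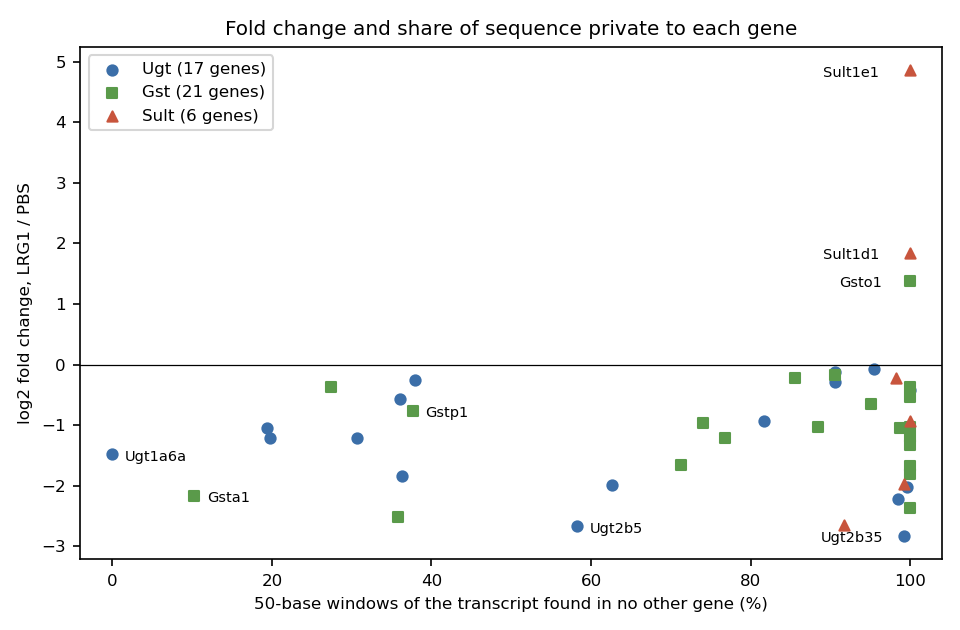
Log2 fold change (LRG1 over PBS) of the 44 genes against the percentage of 50-base windows of their transcript found in no other gene, by family. The 3 genes that rose lie at 100%, and genes with log2 fold changes below -2 are found both near 100% and at 10.3% (Gsta1).

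Levels between genes were compared per 1000 windows of the transcript, a length scale, among genes with at least 90% private windows. On this scale Mgst1 was the highest with PBS, at 844 CPM per 1000 windows, followed by Ugt2b36 at 217, Gsta4 at 176, Gsta3 at 166 and Ugt2b34 at 141. With LRG1 these stood at 586, 53.7, 34.2, 52.3 and 30.3. Gsto1 stood at 110.0 with PBS and 288 with LRG1, Sult1d1 at 10.03 and 35.9, and Sult1e1 at 1.21 and 35.1. Genes with less private sequence could not be placed in this order. With PBS, Gstp1 stood at 345 CPM per 1000 windows of the whole transcript but at 916 per 1000 private windows, Gstm1 at 527 and 686, and Ugt1a1 at 27.1 and 137.

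Genes for the supply of the donor of each reaction were examined next. The gene lists written for this purpose also hold genes of removal and turnover. Counts in these lists are to be read against the 25.8% of all tested genes called lower and the 25.5% called higher. The lists were chosen with earlier results of these data known, so that comparison is descriptive and carries no test. For UDP-glucuronic acid, 5 of 13 genes fell (38.5%), 4 rose and 4 did not pass, with a median log2 fold change of 0.045. Named here are the 4 genes with the smallest p. Ugdh, which oxidises UDP-glucose to UDP-glucuronic acid, had 785 ± 14.2 CPM after PBS and 303 ± 6.21 CPM after LRG1 (log2 fold change -1.37, n = 3 per group). Slc35d1, which carries the donor into the endoplasmic reticulum, had 78.7 ± 1.40 CPM after PBS and 26.8 ± 1.17 CPM after LRG1 (-1.55), and Ugp2, which makes UDP-glucose, had 234 ± 5.34 CPM after PBS and 137 ± 2.53 CPM after LRG1 (-0.77). Hexokinase gene Hk2, further upstream, rose by 0.79 on the log2 scale. The other 3 that rose were Pgm1 (0.95), Hk1 (0.61) and Uxs1 (0.35), whose product turns UDP-glucuronic acid into UDP-xylose. Pgm2 (-0.30) and Rgn (-0.43) fell, and Pgm2 stood at 325 CPM after PBS against 40.0 CPM for Pgm1.

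For sulfate and PAPS, 4 of 13 genes fell (30.8%, near the share of all genes tested), 1 rose and 8 did not pass, and the median was -0.0039. Slc26a1, a sulfate transporter, fell by 4.02 on the log2 scale, with exons that overlap Idua on the other strand. Suox (sulfite oxidase), Arsb (a sulfatase) and Bpnt1, which degrades PAP, had log2 fold changes of -0.45, -0.24 and -0.15, and 59.7% of the exon bases of Arsb are overlapped on the other strand. The gene that rose was Papss1, which makes PAPS, at 31.9 ± 2.21 CPM after PBS and 35.6 ± 0.807 CPM after LRG1 (0.16).

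In the glutathione list 14 of 21 genes fell (66.7%), 2 rose and 5 did not pass, with a median of -0.42. Gclc, which catalyses the first step of glutathione synthesis, had a log2 fold change of -1.63, and Gss, which catalyses the second and overlaps Acss2 on the other strand, of -0.98. Cbs, which feeds cysteine synthesis, had 131 ± 8.07 CPM after PBS and 36.4 ± 1.54 CPM after LRG1 (-1.85), and Anpep, a peptidase of glutathione breakdown, -1.03. The 2 that rose were Ggct (0.60) and the glutathione reductase gene Gsr (0.12).

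Enzymes of other conjugations and the carriers of conjugates were also lower in most cases. Of 16 genes for methyl, acetyl and amino acid transfer, acyl-CoA synthesis and epoxide hydrolysis, 12 fell (75.0%), none rose and 4 did not pass (median -0.58). Glyat, which conjugates acyl groups to glycine, had 95.3 ± 1.97 CPM after PBS and 50.7 ± 1.86 CPM after LRG1 (-0.91), and the epoxide hydrolase gene Ephx1 had 711 ± 9.92 CPM after PBS and 417 ± 16.6 CPM after LRG1 (-0.77). Baat, which joins bile acids to taurine or glycine, and the acyl-CoA synthetase gene Acsm5 had log2 fold changes of -3.10 and -2.99. Of 15 transporter genes, 10 fell (66.7%), 2 rose and 3 did not pass (median -0.38). Abcc3, which exports glucuronides to blood, had 839.7 ± 25.2 CPM after PBS and 389 ± 26.6 CPM after LRG1 (-1.11), and Abcc2, the canalicular exporter of glucuronides and glutathione conjugates, had 473 ± 26.7 CPM after PBS and 259 ± 1.07 CPM after LRG1 (-0.87). Abcc4 fell by 0.93 on the log2 scale, while Abcb1b, a multidrug exporter, rose by 0.76.

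Of 26 genes for regulators of conjugating enzymes, 19 fell (73.1%), 2 of them at least 2-fold, 3 rose and 4 did not pass (median -0.27). The list pools transcription factors with their partners and inhibitors. Those that fell include the NRF2 inhibitor gene Keap1 (-0.43) and Bach1 (-0.16), a repressor of NRF2 targets. Nfe2l2, which encodes NRF2, had 392 ± 2.60 CPM after PBS and 202 ± 1.64 CPM after LRG1 (-0.96), and Nr1i2, which encodes PXR, had 38.0 ± 2.79 CPM after PBS and 14.2 ± 1.91 CPM after LRG1 (-1.42). Cebpa and Nr1h3 had log2 fold changes of -0.83 and -0.63. Nr1i3, the gene of CAR, was too scarce to test, at 0.406 ± 0.172 CPM after PBS and 0.177 ± 0.157 CPM after LRG1. Among 18 reference targets of NRF2 outside glutathione metabolism, 14 fell (77.8%), 2 rose and 2 did not pass (median -0.32). Srxn1, Slc48a1, Cbr1 and Cbr3 had log2 fold changes of -0.76, -0.65, -0.76 and -1.87, whereas Hmox1 (0.13) and Txn1 (0.10) rose.

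**Figure D5:**
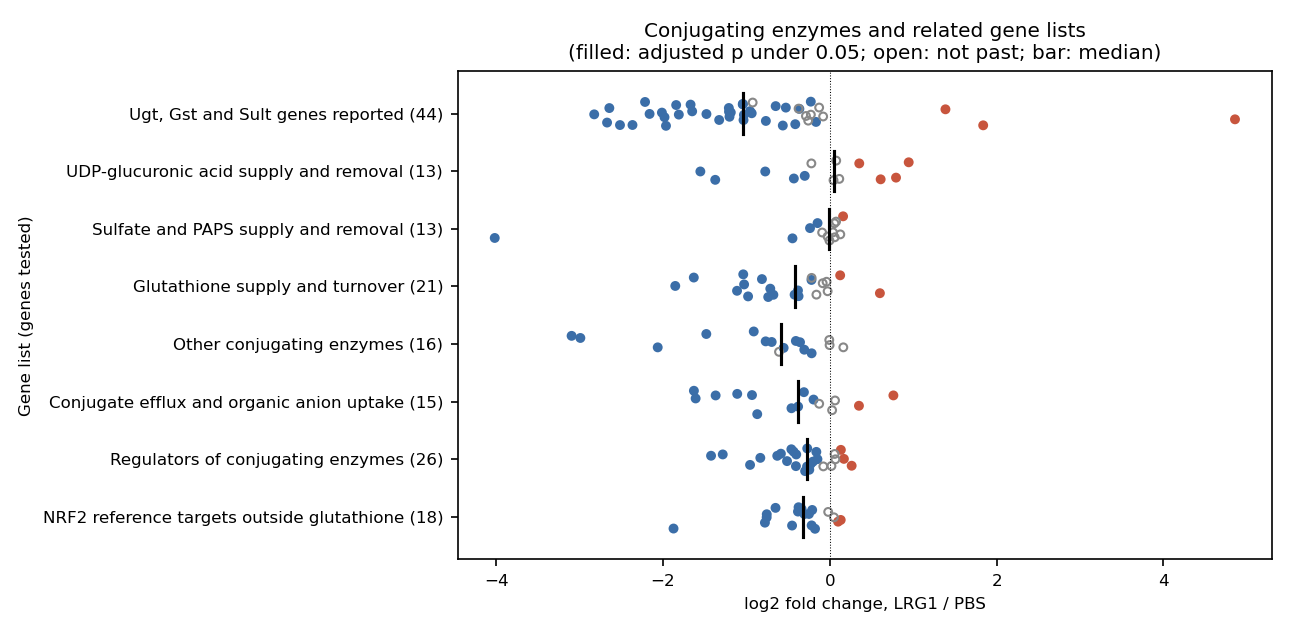
Log2 fold changes (LRG1 over PBS) of the 44 conjugating enzyme genes and of 7 related gene lists (filled points passed the test, blue lower and red higher; open points did not pass; vertical bars are medians). Medians lie between -1.04 for the conjugating enzymes and 0.045 for the list of UDP-glucuronic acid supply and removal. The point farthest to the right is Sult1e1 at 4.86.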

How the data were processed

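RNA was measured in 3 PBS and 3 LRG1 libraries, grouped by their titles. Per the labels' protocols, about 500 ng of total RNA entered a poly(A)-selecting, strand-marking kit sequenced as single-end reads of 50 nt. The deposited values are raw counts per gene symbol. The tools named in the submitters' processing notes are bcl2fastq, TopHat2 and HTSeq, and the build is mm9. Neither versions, annotation and strand setting nor the handling of multiply aligned reads was found in the sources used here. In the tables' summary rows, 58.2 to 59.3% of the grand total is listed as not unique. The 5 summary rows were left out.

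Genes passed edgeR's filterByExpr (minimum count 10; 12301 genes, 99.95% of counts) and were tested with edgeR 4.0.16 in R 4.3.3 (TMM, quasi-likelihood F test, treatment alone). Standard errors came from the F statistic. Alternatives used DESeq2 1.42.0, limma-voom (limma 3.58.1), other scalings and filters, a replicate block and leaving out each library. Tested on simulated counts (12106 genes), the pipeline called 62.7% of 51 genes changed 1.25-fold, 91.3% of 46 changed 1.5-fold, 91.5% of 47 changed 2-fold and 100.0% of 53 changed 4-fold. Of the 186 calls, 8.60% fell on genes simulated without a change, a share above the threshold of 0.05. In the data 6317 of 12301 genes were called, far more than in the simulation, so that share does not carry over to them.

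The members and lists were chosen with earlier results of these data known, and the words searched in promoters after the counts had been seen. Per-library values are given for the 8 genes with the smallest p in each family, those that rose, those not past the threshold with at least 10 CPM and those at the count limit. From each list the 4 genes with the smallest p are named, with group means or log2 fold changes. Other genes are named after their values were seen. Promoter sequences are RefSeq's (GRCm38.p6).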

Additional observations from a re-analysis of the deposited data

How the results depend on the processing

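The 3 genes that rose did so under all 14 alternatives, 8 other settings and 6 fits without one library each. The number of the 44 genes called lower ran from 32 to 36, and 39 of the 44 kept their side of the threshold and their direction wherever they were tested. Of 612 gene values under alternatives, 8 lost a call and 10 gained one, all in Gstm2, Gstm5, Gstp2 and Ugt2b37. Ugt2a3, which did not pass, changed sign without PBS replicate 2 (log2FC 0.010, adjusted p = 0.932), and over the fits without 1 library its log2FC ran from -0.17 to 0.010. The median log2 fold change of the 44 genes lay between -1.1121 and -1.0027 when single libraries were left out. With the replicate number as a block, 3 genes were called higher and 35 lower (2906 and 2984 of all genes); Gstm2 lost its call (adjusted p = 0.0763), and Gstp2 and Ugt2b37 passed (0.0462 and 0.0364). Same-numbered libraries did not deviate together (correlations of -0.13, -0.016 and -0.12), so the numbers were not taken as pairs. With no filter on low counts Gstp2 and Ugt2b37 passed as well, and with RLE or upper-quartile scaling Gstp2 did. DESeq2 called 3 higher and 33 lower. Depth limits Ugt2b37 and Ugt2b38, with at most 21 counts in a library.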

Other observations

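A few conjugating enzyme genes stayed under the count rule and have no test. Ugt1a10 had 0, 1 and 2 counts in PBS replicates 1 to 3 and 4, 3 and 1 in LRG1 replicates 1 to 3. Gsto2 had 1, 5 and 0 counts with PBS and 0, 1 and 2 with LRG1. Mgst2, whose product conjugates leukotrienes, had 1 count over the PBS libraries and 2 over the LRG1 libraries, and Sult2b1, a cholesterol sulfotransferase, had 2 and 4. Sult6b1 had 1 count in each group. Gstt4, Ugt2a1, Ugt2a2, Sult1c1, Sult3a1 and the 7 Sult2a genes had none. Little sequence was private to Ugt2a1 (2.975% of windows), Ugt2a2 (5.46%) and Sult2a2 (37.9%), so their lack of counts need not mean absent RNA.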
